A study of Mus musculus with 6 samples.

Results

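The genes described here are 10 genes of endothelial cell (EC) junctions and EC identity: Cdh5, Pecam1, Cldn5, Esam, Tie1, Tek, Emcn, Eng, Erg and Egfl7. They are a fixed list of names, and all 10 were found among the 47729 genes of the count files through their Ensembl identifiers. Their RNA was counted by RNA-seq in CD144-enriched cells, the fraction taken with beads against VE-cadherin, from ischemic mouse muscle. All mice were on a C57BL/6J background, received a high-fat, high-sucrose diet, had hind limb ischemia (HLI) surgery on day 0, and were injected in the muscle with adenovirus on days 1 and 4 by the labels, and the muscle was taken after 1 week. For the second injection the methods of the study state a later day. Of the 3 groups, each with 2 libraries, WT + GFP held WT mice that received Ad-GFP, the adenoviral control vector, KO + GFP held Leene-KO mice with the same control, and KO + LEENE held Leene-KO mice that received Ad-LEENE, which carries human LEENE. The labels give neither the age nor the sex of the mice. The methods of the study give the age at which the diet began and its length, and state that both sexes were used. The KO was a CRISPR/Cas9 deletion in the whole animal, not only in ECs. The virus was delivered to the muscle, so the vector could reach other cells than ECs. The Leene transcript and the viral RNAs were not analysed here, so the genotype labels were not checked against the targeted gene.

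ECs line all blood vessels and are held together by adherens and tight junctions. VE-cadherin (Cdh5), PECAM-1 (Pecam1), claudin-5 (Cldn5) and ESAM (Esam) sit at these contacts. The receptor TIE2 (Tek) answers to angiopoietins, the related receptor TIE1 (Tie1) modulates it, and both keep vessels stable. Endomucin (Emcn) and endoglin (Eng) are glycoproteins of the EC surface, ERG (Erg) is an ETS family transcription factor that drives many EC genes, Cdh5 among them, and EGFL7 (Egfl7) is secreted by ECs and carries the microRNA miR-126 in an intron.

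To show the DNA in front of these genes, RefSeq promoters on GRCm38, the build of the counts, were searched for GGAA, the core to which ETS factors such as ERG bind, on both strands. The table of promoters used matched 7 of the 10 genes, with 11 promoters in all, and those of Cdh5, Pecam1 and Esam were not analysed here. Over 250 bases, GGAA occurred in 93.4% of all 32817 promoters, so a match sets no gene apart. The Emcn promoter is shown because Emcn had the widest range of the 10 genes, with the core in capitals. It covers the 239 bases before the first exon at chr3:137340828-137341066 on the plus strand, has 4 matches, and the longer form AGGAAG, which contains GGAA, occurred 2 times in it, against 29.5% of all promoters with at least 1. The Cldn5 promoter, chr16:18776597-18776846 on the plus strand, and the first Erg promoter, chr16:95586594-95586843 on the minus strand, are shown because neither holds any GGAA.
Emcn: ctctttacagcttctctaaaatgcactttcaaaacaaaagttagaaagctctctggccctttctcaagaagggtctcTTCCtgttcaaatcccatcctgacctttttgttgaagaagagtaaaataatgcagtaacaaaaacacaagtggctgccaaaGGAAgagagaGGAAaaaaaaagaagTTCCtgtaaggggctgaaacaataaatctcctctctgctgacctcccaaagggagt
Cldn5: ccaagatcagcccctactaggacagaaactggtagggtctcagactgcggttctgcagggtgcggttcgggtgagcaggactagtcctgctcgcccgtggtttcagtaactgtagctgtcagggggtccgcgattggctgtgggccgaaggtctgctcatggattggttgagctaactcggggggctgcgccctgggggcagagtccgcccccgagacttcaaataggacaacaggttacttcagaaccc
Erg: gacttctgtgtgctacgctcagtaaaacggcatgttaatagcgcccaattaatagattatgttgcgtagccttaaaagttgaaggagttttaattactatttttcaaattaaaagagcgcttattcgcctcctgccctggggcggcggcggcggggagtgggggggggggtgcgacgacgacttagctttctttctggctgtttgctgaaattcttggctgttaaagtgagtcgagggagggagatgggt
The other 2 Erg promoters, which lie within the gene, held 4 and 2 matches. The Eng promoter had 3, and the Tie1 window had 7, of which 2 lie in the 38 bases before the first exon of the annotation used for counting. A match describes the letters of these windows and says nothing of binding.

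Mature miR-126a-3p is given because it lies within Egfl7, at chr2:26591402-26591423 on the plus strand, with its seed in capitals.
mmu-miR-126a-3p: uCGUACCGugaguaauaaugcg
The gene Mir126a had 0 reads in each of the 6 libraries. It shares 73 exon bases with Egfl7 in the annotation used for counting, and the libraries were primed on poly(A) tails, so this count does not measure the mature microRNA.

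The 6 libraries held 1770992 to 5602603 reads assigned to genes, with the KO + LEENE pair the shallowest. Levels are given in reads and in CPM, reads scaled by the total of assigned reads of the library. The level that 3 reads give was 1.67 and 1.69 CPM in KO + LEENE and 0.535 to 0.827 CPM in the other 4 libraries. This floor covers counting error only, while the intervals of fold changes come from the fit and include the spread between libraries. The TMM factors, which rescale libraries for their composition in the test, were 0.66 and 0.713 in KO + GFP and 1.52 in both KO + LEENE libraries, so a fold change between these groups differs from the ratio of their CPM. Mitochondrially encoded genes took 33.6% to 34.3% of reads in the Leene-KO libraries and 50.1% and 50.9% in WT + GFP. Per the file headers both libraries of a group carry 1 facility sample number, so they may come from 1 preparation: group and preparation cannot be told apart, and adjusted P values measure the spread between libraries. Levels were tested with edgeR's quasi-likelihood test over the 8903 genes that passed a filter on low counts, and a gene is called at a Benjamini-Hochberg adjusted P value under 0.05. Of the 10 genes, 8 passed the filter, while Esam and Tek did not.

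**Figure D1:**
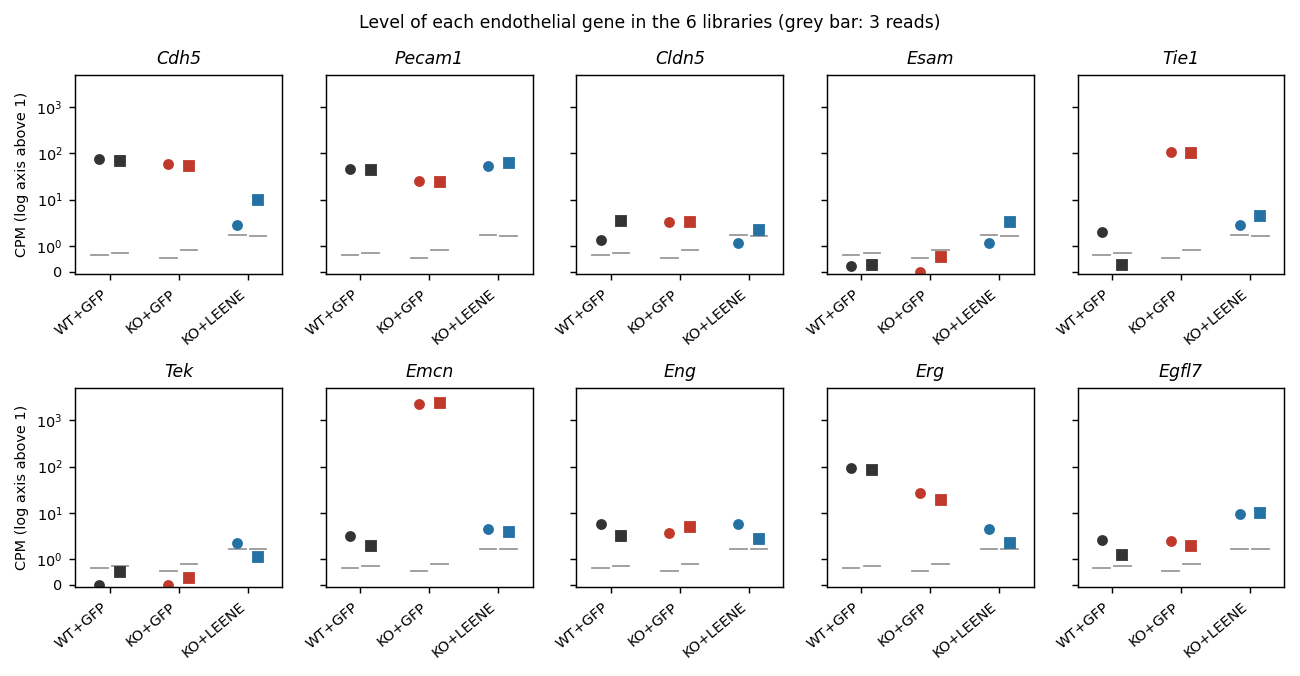
CPM of each of the 10 endothelial genes in the 6 libraries, on an axis that is linear up to 1 and logarithmic above it. Circles are replicate 1, squares replicate 2, and a grey bar marks the level of 3 reads. Emcn and Tie1 stand high in both KO + GFP libraries only, Cdh5 and Erg are lowest in KO + LEENE, and Esam and Tek are at a few reads at most.

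Cdh5 (ENSMUSG00000031871, chr8:104101625-104144502, plus strand), whose product is the antigen of the beads, was lower in KO + LEENE than in the other groups. The WT + GFP libraries had 332 and 283 reads (73.2 and 68.6 CPM), the KO + GFP libraries 322 and 196 (57.5 and 54.1 CPM), and the KO + LEENE libraries 5 and 18 (2.82 and 10 CPM). The KO + LEENE libraries were below each of the other 4. In KO + LEENE the level fell by 4.26 ± 0.22 (SE) on the log2 scale against KO + GFP, a 19.1-fold difference (adjusted P = 2.59e-71, edgeR), and against WT + GFP the log2 fold change was -4.11 ± 0.22 (adjusted P = 6.96e-68). The 2 KO + LEENE libraries differed from each other in Cdh5, but this did not pass adjustment over the 30 pairs of libraries of a group tested for the 10 genes (exact binomial test, P = 0.0107, adjusted 0.16). Without KO + LEENE replicate 2 the log2 fold changes were -5.39 and -5.24, and without replicate 1 they were -3.58 and -3.43. KO + GFP against WT + GFP gave 0.14 ± 0.11, with a 95% interval from -0.07 to 0.36, and was not called (adjusted P = 0.243). Scaling by library size only turned this value to -0.34 and called it (adjusted P = 0.00093). In bulk samples, fewer ECs and less RNA per EC cannot be told apart.

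Pecam1 (ENSMUSG00000020717, chr11:106654217-106750628, minus strand), an adhesion molecule of EC contacts that platelets and leukocytes also carry, varied least of the 8 genes tested over the groups after TMM scaling, whereas in CPM Eng did. It had 211 and 175 reads (WT + GFP), 140 and 89 (KO + GFP) and 95 and 110 (KO + LEENE). In CPM the means were 44.5 ± 2.92 (SD, n = 2), 24.8 ± 0.311 and 57.5 ± 5.49, so KO + LEENE was highest before TMM scaling. After it, the highest group mean was 1.28 times the lowest. In KO + GFP against WT + GFP, Pecam1 was called lower, by a log2 value of -0.36 ± 0.14 (adjusted P = 0.0193). This call was lost without WT + GFP replicate 1 (adjusted P = 0.109), without KO + GFP replicate 2 (0.11) and with DESeq2 (0.132). KO + LEENE against KO + GFP gave 0.06 ± 0.16, with an interval from -0.26 to 0.38, and was not called. With library size only it was 1.22 and called (adjusted P = 7.54e-14). KO + LEENE against WT + GFP gave -0.30 ± 0.15 (adjusted P = 0.0603), a value that was called without KO + GFP replicate 1 (adjusted P = 0.0472), with only the 4 samples compared (0.0193) and under a minimum of 10 reads in every sample (0.0213), and turned to 0.37 with library size only (adjusted P = 0.0144).

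Cldn5 (ENSMUSG00000041378, chr16:18776847-18778260, plus strand), the main claudin of EC tight junctions, was at low levels throughout. It had 6 and 14 reads (WT + GFP), 18 and 12 (KO + GFP) and 2 and 4 (KO + LEENE), and both KO + LEENE libraries had the fewest reads. In CPM the KO + GFP libraries, at 3.21 and 3.31, lay within the range of WT + GFP, 1.32 and 3.39, which the KO + LEENE libraries, at 1.13 and 2.23, overlapped. Cldn5 was called lower in KO + LEENE than KO + GFP, at -2.07 ± 0.61 (adjusted P = 0.00136), but not with library size only (-0.93, adjusted P = 0.184) or DESeq2 (adjusted P = 0.125). Against WT + GFP, KO + GFP was at 0.97 ± 0.46 and missed the threshold (adjusted P = 0.0501). It was called in 5 alternatives: without WT + GFP replicate 2 (1.74, adjusted P = 0.0177), without either KO + LEENE library (0.0483 and 0.0493), without mitochondrially encoded genes (0.0379) and with only the 4 samples compared (0.0365). KO + LEENE against WT + GFP gave -1.10 ± 0.68 (adjusted P = 0.139), and was called without WT + GFP replicate 1 (-1.67, adjusted P = 0.0471), while without WT + GFP replicate 2 it was -0.32 (adjusted P = 0.803). Esam (ENSMUSG00000001946, chr9:37528078-37538319, plus strand), an immunoglobulin family adhesion molecule of tight junctions, had 1 and 1 reads (WT + GFP), 0 and 2 (KO + GFP) and 2 and 6 (KO + LEENE). Only 1 of the 6 libraries was above the 3-read floor, and a count of 0 in KO + GFP replicate 1 allows up to 0.535 CPM. The mean was 2.24 CPM in KO + LEENE, 0.231 in WT + GFP and 0.276 in KO + GFP. Esam did not pass the filter, so this difference was not tested in the fit over 8903 genes.

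The paralogous receptors Tie1 and Tek did not have like counts. Tie1 (ENSMUSG00000033191, chr4:118471191-118490061, minus strand), which has no well-established ligand of its own and modulates TIE2, had 9 and 1 reads (WT + GFP), 588 and 366 (KO + GFP) and 5 and 8 (KO + LEENE). The KO + GFP libraries, at 105 and 101 CPM, stood above the other 4, which were at 0.242 to 4.47 CPM. The log2 fold change was 6.92 ± 0.22 in KO + GFP against WT + GFP, or 121-fold (adjusted P = 1.47e-158), and -5.95 ± 0.22 in KO + LEENE against KO + GFP, or 61.9-fold (adjusted P = 1.36e-124). The size of the first rests on few WT + GFP reads: it was 8.97 without WT + GFP replicate 1 and 6.14 without replicate 2. KO + LEENE against WT + GFP gave 0.97 ± 0.63, with an interval from -0.26 to 2.20, and was not called (adjusted P = 0.157). It was called without WT + GFP replicate 1 (3.04, adjusted P = 0.00663) and with library size only (1.63, adjusted P = 0.0181), while without WT + GFP replicate 2 it was 0.20 (adjusted P = 0.824). Tek (ENSMUSG00000006386, chr4:94739289-94874976, plus strand), the angiopoietin receptor itself, had 0 and 2 reads (WT + GFP), 0 and 1 (KO + GFP) and 4 and 2 (KO + LEENE). Only KO + LEENE replicate 1 was above 3 reads, and the counts of 0 allow up to 0.662 CPM in WT + GFP and 0.535 CPM in KO + GFP.

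Emcn (ENSMUSG00000054690, chr3:137341067-137432185, plus strand), a mucin-like sialoglycoprotein of capillary and venous ECs, had the widest range of the 10 genes. It had 14 and 8 reads (WT + GFP), 12245 and 8648 (KO + GFP) and 8 and 7 (KO + LEENE). In CPM this was 3.09 and 1.94, then 2190 and 2390, then 4.52 and 3.91. The KO + GFP libraries were far above the other 4, which overlapped in reads. The log2 fold change was 10.3 ± 0.18, or 1240-fold, in KO + GFP against WT + GFP, and -10.2 ± 0.19 in KO + LEENE against KO + GFP, and both were called under each alternative in which Emcn was tested. KO + LEENE against WT + GFP gave 0.06 ± 0.36, with an interval from -0.65 to 0.77 (adjusted P = 0.926). Emcn in KO + GFP was also the only one of the 30 pairs in which the libraries of a group differed beyond counting error, by a margin small against the group difference (exact binomial test, adjusted P = 1.64e-08). Emcn took nearly all of the summed level of the 10 genes in KO + GFP. With it the sum was 2410 and 2600 CPM in KO + GFP, against 227 and 205 CPM (WT + GFP) and 88.1 and 102 CPM (KO + LEENE). Without it the sum was 223 and 210 CPM in KO + GFP, within the WT + GFP values of 224 and 203, and 83.6 and 97.7 in KO + LEENE.

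Eng (ENSMUSG00000026814, chr2:32646595-32682669, plus strand), a co-receptor for BMP9, BMP10 and TGF-β, was low and even. It had 26 and 13 reads (WT + GFP), 21 and 18 (KO + GFP) and 10 and 5 (KO + LEENE), or group means of 4.44 ± 1.83, 4.36 ± 0.86 and 4.22 ± 2.02 CPM (SD, n = 2). The CPM of the 3 groups overlapped. After TMM scaling Eng was called lower in KO + LEENE than KO + GFP, at -1.15 ± 0.46 (adjusted P = 0.0188). The call was lost with library size only, where the value was -0.00336, with DESeq2 (adjusted P = 0.299), with no filter on low counts (0.133), without KO + GFP replicate 2 (0.0948) and without KO + LEENE replicate 2 (-0.684, adjusted P = 0.265). KO + GFP against WT + GFP gave 0.40 ± 0.37, with an interval from -0.32 to 1.11, and KO + LEENE against WT + GFP gave -0.75 ± 0.46, from -1.66 to 0.15. Eng shares 61 exon bases with Fpgs on the opposite strand, which had 4 reads over all libraries.

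Erg (ENSMUSG00000040732, chr16:95359169-95586593, minus strand) was the only one of the 8 genes called in all 3 comparisons, and it was called in each of them under every alternative in which it was tested. It had 417 and 345 reads (WT + GFP), 149 and 70 (KO + GFP) and 8 and 4 (KO + LEENE). In CPM the means were 87.8 ± 5.91, 23 ± 5.15 and 3.38 ± 1.62 (SD, n = 2), in that order, and no 2 groups overlapped. The log2 fold change was -1.41 ± 0.13 from WT + GFP to KO + GFP (2.65-fold, adjusted P = 4.6e-26), -3.94 ± 0.31 in KO + LEENE against KO + GFP (15.4-fold, adjusted P = 1.03e-33) and -5.35 ± 0.24 in KO + LEENE against WT + GFP (40.8-fold, adjusted P = 7.94e-89). Of all genes tested, 29.8% were called in all 3 comparisons.

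Egfl7 (ENSMUSG00000026921, chr2:26580014-26593120, plus strand) was the only one of the 8 genes called higher in KO + LEENE. The WT + GFP libraries had 12 and 5 reads (2.65 and 1.21 CPM), the KO + GFP libraries 14 and 7 (2.5 and 1.93 CPM), and the KO + LEENE libraries 17 and 18 (9.60 and 10 CPM). In CPM both KO + LEENE libraries were above the other 4. The log2 fold change was 1.64 ± 0.45 against WT + GFP (3.12-fold, adjusted P = 0.000522), a call not made by DESeq2 (adjusted P = 0.0617). Without WT + GFP replicate 1 it was 2.29. Against KO + GFP it was 0.95 ± 0.43 (adjusted P = 0.043), and this call was lost without WT + GFP replicate 1 (adjusted P = 0.0546), KO + GFP replicate 1 (0.0803) or 2 (0.178), and KO + LEENE replicate 1 (0.0821) or 2 (0.111), with no filter on low counts (0.0707) and with DESeq2 (0.28). The call of Egfl7 in KO + LEENE against KO + GFP was also lost with the replicate number as a block. KO + GFP against WT + GFP gave 0.69 ± 0.51, with an interval from -0.31 to 1.69, and was not called, nor was it without WT + GFP replicate 1, where it was 1.33. Egfl7 overlaps 4 other genes in its exons, of which Agpat2, on the opposite strand over 64 bases, had 16 reads over all libraries and the others 0.

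**Figure D2:**
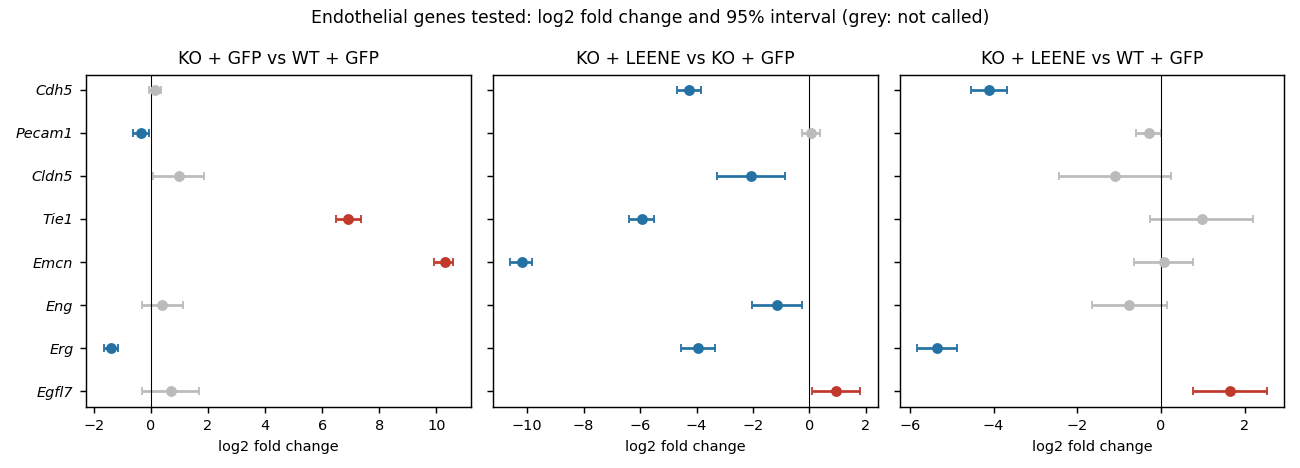
Log2 fold change with its 95% interval for the 8 endothelial genes tested, in each of the 3 comparisons, with red for called higher, blue for called lower and grey for not called. Emcn and Tie1 lie far to the right in KO + GFP against WT + GFP and far to the left in KO + LEENE against KO + GFP, and Cdh5 and Erg lie far to the left in KO + LEENE against WT + GFP.

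Counted together, 4 of the 8 genes tested were called in KO + GFP against WT + GFP, where 70.1% of all genes tested were called. Tie1 and Emcn were higher, against 34.2% of all genes, and Pecam1 and Erg were lower, against 35.9%. In KO + LEENE against KO + GFP, 7 of 8 were called, Egfl7 higher and the other 6 lower, against a background of 67.8% called, 32.8% higher and 34.9% lower. In KO + LEENE against WT + GFP, 3 of 8 were called, Egfl7 higher and Cdh5 and Erg lower, against 70.7%, of which 33.9% higher and 36.9% lower. Each of the 8 was called in at least 1 comparison, while 7.59% of all genes tested were called in none. The median log2 fold change of the 8 genes was 0.54, -3.0 and -0.53 in the 3 comparisons, and that of all genes tested -0.09, -0.01 and -0.11. The median size of the change was 0.83, 3.0 and 1.04 for the 8 genes and 2.09, 2.18 and 2.12 for all genes tested. The comparisons share their libraries, and only 8 genes were tested, so these values describe the list.

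In 4 of the 8 genes the highest group mean was over 10 times the lowest, on TMM-scaled CPM with 1 added. The ratio was 918 for Emcn, 70 for Tie1, 28.8 for Erg and 15.8 for Cdh5. For the other 4 it was 1.28 to 2.73. Of all genes tested, 36.9% had a ratio over 10. The group with the highest mean was KO + GFP for Cdh5, Cldn5, Tie1, Emcn and Eng, WT + GFP for Pecam1 and Erg, and KO + LEENE for Egfl7. In CPM without TMM scaling it was WT + GFP for Cdh5 and Eng and KO + LEENE for Pecam1, and the other 5 were as before. On either scale the 8 genes thus had no common order of the groups.

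**Figure D3:**
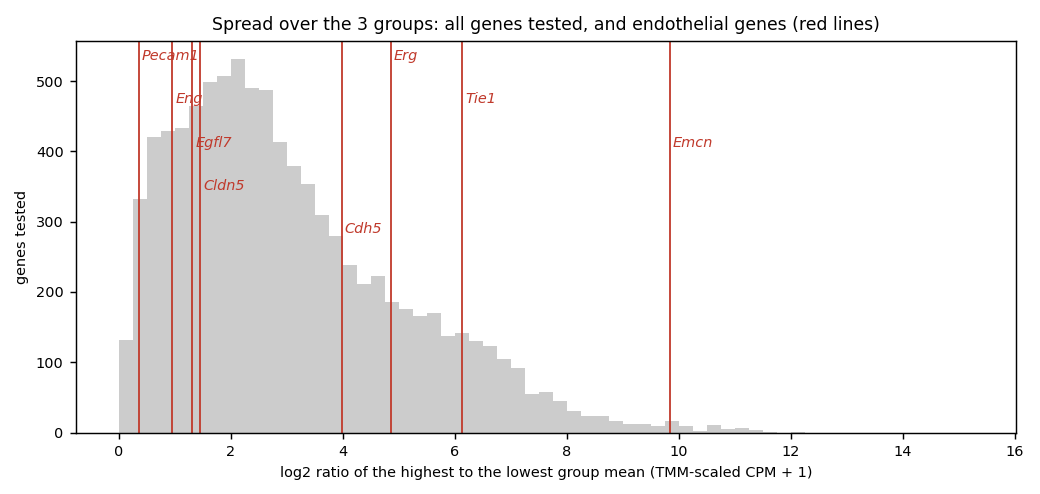
Histogram of the log2 ratio of the highest to the lowest group mean (TMM-scaled CPM with 1 added) over the 8903 genes tested, with a red line for each of the 8 endothelial genes. Pecam1, Eng, Egfl7 and Cldn5 lie at the left and Cdh5, Erg, Tie1 and Emcn at the right, with Emcn in the far tail.

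The genes whose levels over the 6 libraries were most like those of Cdh5, by the root mean square distance of centred log2 CPM among 2784 genes with a mean of at least 20 CPM, were Acin1 (0.41), Tra2b (0.412), Zeb2 (0.432), Rere (0.44) and Adam9 (0.453). Acin1 and Tra2b act in RNA splicing, Zeb2 and Rere in transcription, and Adam9 is a membrane metalloprotease. The endothelial genes described here were left out of the candidates, so this search could not show whether any of them was near Cdh5. None of the 5 was in the other lists of EC genes used here. Acin1, the nearest, had 1267 and 1166 reads (WT + GFP), 1224 and 812 (KO + GFP) and 47 and 63 (KO + LEENE).

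Genes that act with the 10 were taken from 6 lists, 90 genes in all, of which 62 were tested. In KO + GFP against WT + GFP, 23 were called higher and 19 lower (67.7% called), in KO + LEENE against KO + GFP 23 and 27 (80.6%), and in KO + LEENE against WT + GFP 27 and 23 (80.6%). The shares of all genes tested that were called were 70.1% (34.2% higher and 35.9% lower), 67.8% (32.8% and 34.9%) and 70.7% (33.9% and 36.9%), in the same order, and the counts of each list below stand against these shares. The median size of the change in the 62 genes was 1.86, 2.88 and 2.30 on the log2 scale, against 2.09, 2.18 and 2.12 for all genes tested. In each list below, the genes named are the 3 with the highest mean CPM.

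Of 14 tested partners of EC junctions, 3 were called higher and 6 lower in KO + GFP against WT + GFP, 6 and 6 in KO + LEENE against KO + GFP, and 5 and 8 in KO + LEENE against WT + GFP. Ptprb, the phosphatase VE-PTP that binds VE-cadherin and TIE2, had 1928 and 1823 reads (WT + GFP), 1171 and 745 (KO + GFP) and 8 and 6 (KO + LEENE). It was lower in KO + LEENE than KO + GFP by 115-fold (adjusted P = 1.85e-225), the same direction as Cdh5, and also lower in KO + GFP than WT + GFP (-0.58 ± 0.07, adjusted P = 7.95e-16). Afdn and Vcl, which tie junctions to actin, were higher in KO + LEENE than KO + GFP, by 5.31 ± 0.19 and 6.33 ± 0.24 on the log2 scale. Afdn had 415 and 443 reads in KO + LEENE and 7 to 25 in the other libraries, and Vcl 385 and 324 in KO + LEENE, 4 and 6 in KO + GFP and 130 and 142 in WT + GFP.

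Of 6 tested genes of the angiopoietin and Tie pathway, 2 were called higher and 2 lower in KO + GFP against WT + GFP, and 2 and 3 in each of the comparisons with KO + LEENE. Angpt2, the ligand that ECs release and that mostly opposes TIE2 signaling, had 9 and 7 reads (WT + GFP), 294 and 144 (KO + GFP) and 117 and 101 (KO + LEENE). It was called higher in KO + GFP than WT + GFP (5.13 ± 0.24, adjusted P = 2.41e-83), as Tie1 was, and in KO + LEENE against KO + GFP it was called lower (-0.78 ± 0.14, adjusted P = 1.71e-07), although its mean CPM, before TMM scaling, was 46.1 ± 9.02 in KO + GFP and 61.2 ± 6.85 in KO + LEENE (SD, n = 2). Pik3r1, the regulatory subunit of PI3-kinase, had 981 and 888 reads in WT + GFP and 3 to 12 in the other libraries. Grb14, an adaptor that binds TIE2, was called lower in KO + GFP against WT + GFP (-5.85 ± 0.22) and called higher in KO + LEENE against KO + GFP (5.22 ± 0.26).

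Of 11 tested genes of the EC surface, 7 were called higher and 1 lower in KO + GFP against WT + GFP, 5 and 5 in KO + LEENE against KO + GFP, and 7 and 1 in KO + LEENE against WT + GFP. Robo4, an EC receptor of the roundabout family, had 21 and 15 reads (WT + GFP), 1586 and 950 (KO + GFP) and 80 and 61 (KO + LEENE). From WT + GFP to KO + GFP it rose (6.51 ± 0.14, adjusted P = 4.94e-271), as Emcn did, but was also higher in KO + LEENE than WT + GFP (2.57 ± 0.24, adjusted P = 2.37e-25). Vwf, the von Willebrand factor of ECs and platelets, was called higher in KO + LEENE than WT + GFP (2.91 ± 0.14) and than in KO + GFP (1.61 ± 0.12). Vcam1, the adhesion molecule for leukocytes, had 252 ± 16.4 CPM (WT + GFP), 197 ± 3.46 CPM (KO + GFP) and 548 ± 15 CPM (KO + LEENE; SD, n = 2). After TMM scaling its log2 fold changes were smaller than those of Robo4 and Vwf, at 0.13 ± 0.09, 0.32 ± 0.09 and 0.45 ± 0.09 in the 3 comparisons, of which the last 2 were called.

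Of 11 tested genes of the endoglin and BMP pathway, 3 were called higher and 5 lower in KO + GFP against WT + GFP, 3 and 3 in KO + LEENE against KO + GFP, and 5 and 5 in KO + LEENE against WT + GFP. Id3, a target of BMP signaling, had 1204 and 1013 reads (WT + GFP), 68 and 50 (KO + GFP) and 5 and 6 (KO + LEENE), the same order of groups as Erg. Smad1, which carries the BMP signal, was higher than in WT + GFP in both KO + GFP (4.33 ± 0.22) and KO + LEENE (4.78 ± 0.21). Its partner Smad4 had 299 and 287 reads in KO + LEENE and 3 to 19 in the other libraries.

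Of 14 tested transcription factors of ECs, 6 were called higher and 4 lower in KO + GFP against WT + GFP, 5 and 7 in KO + LEENE against KO + GFP, and 6 and 4 in KO + LEENE against WT + GFP. Fli1, the ETS factor closest to ERG, did not follow Erg from WT + GFP to KO + GFP: it had 42 and 30 reads (WT + GFP), 7782 and 4908 (KO + GFP) and 10 and 11 (KO + LEENE). Its log2 fold change there was 7.84 ± 0.16 (adjusted P = 1.42e-281), where that of Erg was -1.41. In KO + LEENE, Fli1 was called lower than in KO + GFP (-8.99 ± 0.184) and than in WT + GFP (-1.15 ± 0.285), as Erg was. Tcf4 was likewise higher in KO + GFP than WT + GFP (3.37 ± 0.12) and lower in KO + LEENE than KO + GFP (-3.12 ± 0.12). Nr2f2, the factor of venous identity, changed less, with 581 ± 22.1 CPM (WT + GFP), 320 ± 10.7 CPM (KO + GFP) and 470 ± 5.78 CPM (KO + LEENE; SD, n = 2). After TMM scaling it was called lower in KO + LEENE than KO + GFP (-0.59 ± 0.11, adjusted P = 5.73e-08), the opposite order to that of CPM.

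Of 6 tested genes of the Notch pathway, on which EGFL7 acts, 2 were called higher and 1 lower in KO + GFP against WT + GFP, 2 and 3 in KO + LEENE against KO + GFP, and 2 and 2 in KO + LEENE against WT + GFP. Notch2 had 395 and 451 reads in KO + LEENE and 7 to 15 in the other libraries. Rbpj, the DNA-binding partner of Notch, was higher in KO + GFP than WT + GFP (2.40 ± 0.10) and lower in KO + LEENE than KO + GFP (-4.32 ± 0.15). Hes1, a Notch target, had 101 and 104 reads (WT + GFP), 81 and 57 (KO + GFP) and 9 and 17 (KO + LEENE), and was called lower in KO + LEENE than in either other group.

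**Figure D4:**
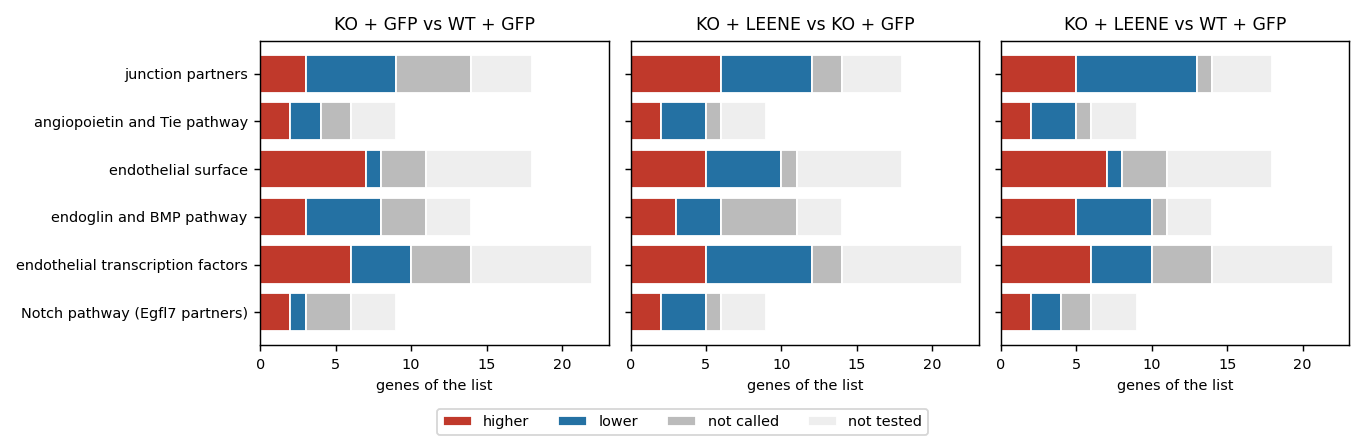
Number of genes of each of 6 related lists that were called higher, called lower, not called or not tested, for the 3 comparisons. Every list held genes called higher and genes called lower in every comparison.

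Genes of other cells, and genes that all cells use, moved between the groups as well. In KO + GFP, where Emcn and Tie1 were high, the summed level of 8 fibroblast markers was 15900 and 15800 CPM, against 62.6 to 83.2 CPM in the other libraries. Of these Dcn, Col3a1 and Col1a2 gave nearly all reads, with 63633 and 40842 for Dcn. Col1a1 was called higher in KO + GFP than WT + GFP (0.86 ± 0.265), whereas Pdgfra was not called (-0.157 ± 0.154). Lum and S100a4 had 0 reads in both KO + GFP libraries, and Pdgfrl had 0 and 2. The sum of 5 platelet and megakaryocyte markers was 2880 and 2950 CPM in KO + GFP and 1.69 to 3.91 elsewhere, through Pf4 alone, while Gp9 had 0 reads in every library. The sum of 12 macrophage markers was 847 and 813 CPM in KO + GFP, 69 and 82.4 (WT + GFP) and 19.8 and 16.7 (KO + LEENE), and Cd68 was at 0 in all but 1 library. Of the 6 macrophage markers tested, 4 were called higher in KO + GFP than WT + GFP, such as Adgre1 with 1823 and 1060 reads in KO + GFP against 1 and 2, and 2 were called lower, Ptprc, the pan-leukocyte antigen CD45, with 18 and 19 against 176 and 172, and C1qb with 1 and 5 against 32 and 37.

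In KO + LEENE, where Cdh5 and Erg were low, the sum of 8 mural markers was 39 and 50.8 CPM, against 4.36 to 5.24 in the other libraries, mostly through Rgs5. Skeletal muscle markers, 10 genes, summed to 37.8 and 32.9 CPM in KO + LEENE, 22 and 20.7 in KO + GFP, and 8.6 and 6.06 in WT + GFP, and 4 or 5 of them were at 0 in each KO + LEENE library. Different genes gave these sums: Acta1 had 53 and 43 reads in KO + LEENE and 1 to 7 in the other libraries, whereas Myh4 had 102 and 65 reads in KO + GFP and 0 to 3 in the others, and was called lower in KO + LEENE than KO + GFP, and Myh1 was called lower in KO + LEENE than WT + GFP. Lymphatic endothelial markers, 6 genes, summed to 125 and 150 CPM in KO + LEENE, 71.4 and 76.4 in KO + GFP, and 18.3 and 12.8 in WT + GFP. Reln gave most of the sum in the Leene-KO libraries, whereas Prox1, the defining factor of that lineage, had 65 and 46 reads (WT + GFP), 20 and 25 (KO + GFP) and 0 and 4 (KO + LEENE). The part of these cells in the levels of the 10 endothelial genes was not tested.

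Of 14 genes used by every cell, 5 or 6 had under 10 reads in each WT + GFP and KO + GFP library and 9 in each KO + LEENE library. Of the 10 tested, 9 were called in KO + GFP against WT + GFP, 6 higher and 3 lower. In KO + LEENE against KO + GFP 9 were called, 1 higher and 8 lower, and against WT + GFP 7, 1 higher and 6 lower. Of all genes tested, 70.1% (34.2% higher and 35.9% lower), 67.8% (32.8% and 34.9%) and 70.7% (33.9% and 36.9%) were called, in the same order. The median log2 fold change of these 10 was 2.53, -2.38 and -0.92, where that of the 8 endothelial genes was 0.54, -3.0 and -0.53. Actb, β-actin, had 537 and 504 reads (WT + GFP), 58995 and 38293 (KO + GFP) and 298 and 341 (KO + LEENE), the pattern of Emcn, and Gapdh had 1 to 9 reads in every library. Near-absence from a library was thus not particular to EC genes, and a count near 0 in these libraries does not show that a gene was not expressed.

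**Figure D5:**
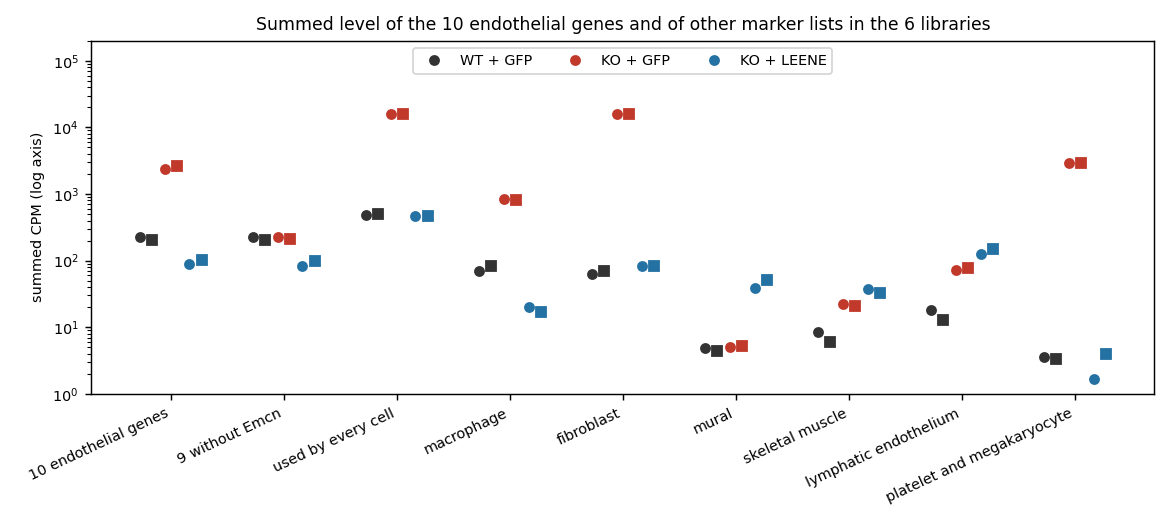
Summed CPM, on a log axis, of the 10 endothelial genes, of 9 of them without Emcn, and of other marker lists in the 6 libraries (circles replicate 1, squares replicate 2). The 10 genes, the genes used by every cell and the macrophage, fibroblast and platelet lists are highest in KO + GFP, and without Emcn the endothelial sum is about level in KO + GFP and WT + GFP.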

How the data were processed

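RNA-seq was run on poly(A)-enriched RNA of CD144-enriched cells from 6 samples, grouped by their titles into 3 groups of 2. Per the labels, libraries were made with a 10x Genomics 3′ kit (v3.1) without the droplet step. Per the file headers, the authors deposited unnormalized read counts per gene, made with featureCounts 2.0.0 over exons of Ensembl release 84 on GRCm38, without strand. The submitters' processing notes name STAR 2.5.4b, bcl2fastq 2.18 and mm10, while the study's methods name mm9, TPM and DESeq2. No collapsing of molecular identifiers is named, so reads copied from 1 molecule are counted apart. Of 47729 genes, 43465 were named by identifier from GENCODE, and 4264 were not. Hprt was not matched.

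Counts were fitted with edgeR 4.0.16 in R 4.3.3 (glmQLFit and glmQLFTest) over all 6 samples with a mean per group, TMM, no covariates, and filterByExpr (minimum count 10, minimum total 15). P values were adjusted over all 8903 genes tested. The SE is the log2 fold change divided by the square root of F, an approximation. Log2 CPM for likeness used a prior count of 2. DESeq2 1.42.0 was an alternative. Libraries of a group were kept as 2 samples, as the labels give them. They differed by more than counting noise over genes (chi-square per degree of freedom 1.18, 1.37 and 1.2 for the WT + GFP, KO + GFP and KO + LEENE pairs), which reads copied from 1 molecule can also give, so this does not show separate preparations. An exact permutation test of 2 against 2 libraries cannot go below P = 0.333, and none was run.

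Named were all 10 endothelial genes, the 3 genes of highest mean CPM in each related list, and the 5 genes nearest to Cdh5. Genes named from the marker lists were chosen after their values were seen. The genes and lists were chosen with earlier results of these data known. As alternatives, the fit was run with DESeq2's size factors or none, with DESeq2, with other filters, without mitochondrially encoded genes, on only the 4 samples compared, with a block for the replicate number, and without 1 replicate at a time.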

Additional observations from a re-analysis of the deposited data

How the results depend on the processing

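The counts of genes called stayed within 1.5 times the values above under each alternative except a minimum of 10 reads in every sample, which gave 1536 genes in KO + GFP against WT + GFP, 1505 in KO + LEENE against KO + GFP and 1552 in KO + LEENE against WT + GFP. That filter removes genes near 0 in any group and left Pecam1 alone of the 10 endothelial genes. Endothelial genes called were then 0 higher and 1 lower, 0 and 0, and 0 and 1 in the 3 comparisons, in that order. DESeq2 called 1 lower in KO + GFP against WT + GFP and 0 higher in the other 2 comparisons. Library size only called 2 higher in KO + LEENE against KO + GFP and 3 in KO + LEENE against WT + GFP, and with no filter on low counts 0 were higher in KO + LEENE against KO + GFP. Under library size only, all genes tested had a median of -0.57, 1.07 and 0.50 (log2), and the share of calls that were lower from 51.2%, 51.5% and 52.1% to 59.9%, 32.9% and 40.1%.

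Leaving out each replicate gave 5719 to 6782, 5501 to 6127 and 5806 to 6642 genes called in the 3 comparisons. The endothelial genes called higher were 2 to 3, 0 to 1 and 1 to 2, and those called lower 1 to 2, 5 to 6 and 2 to 3. A library left alone in its group was assumed to vary like the other groups.

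Signs turned only for values that were not called in the fit described above. With library size only, Cdh5 in KO + GFP against WT + GFP became -0.342, Eng in the same comparison -0.0884 (adjusted P = 0.842), and Pecam1 in KO + LEENE against WT + GFP 0.372. Pecam1 in KO + LEENE against KO + GFP ranged from -0.00791, without KO + GFP replicate 2, to 0.198 over the replicates left out. Emcn in KO + LEENE against WT + GFP was -0.00643 with only the 4 samples compared, and ranged from -0.226, without WT + GFP replicate 2, to 0.42, without WT + GFP replicate 1. Of 24 values (8 genes in 3 comparisons), 11 kept their direction and their side of the threshold under every alternative that tested them: those of Erg in all 3 comparisons, of Tie1 and Emcn in both comparisons with KO + GFP, of Cdh5 in both with KO + LEENE, and of Egfl7 in KO + GFP and Eng in KO + LEENE against WT + GFP. The cause of the other changes was not tested.

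The titles number the replicates 1 and 2 in each group. Deviations from the group means of same-numbered libraries correlated at 0.0325, 0.0134 and 0.0195, so the numbers were not taken to pair the libraries. With the replicate number as a block, 6072, 5841 and 6147 genes were called, 0 endothelial genes were called higher in KO + LEENE against KO + GFP, where Egfl7 was at adjusted P = 0.0541, and no other call of an endothelial gene changed. At the depth of KO + LEENE, only Pecam1 and Egfl7 of the 10 endothelial genes had 10 or more reads in both libraries.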
